A study of Arabidopsis thaliana with 4 samples.

Results

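Trehalose-6-phosphate synthase (TPS) genes were examined for binding of LEAFY COTYLEDON1 (LEC1), an NF-YB protein needed for embryo maturation, in Arabidopsis seeds at the bent cotyledon stage. The 8 genes described are the class I gene TPS1 and the 7 class II genes TPS5 to TPS11, out of 27444 protein-coding genes, and the binding data are the peaks that lay in one of these genes or within 1000 bp of either end. The genes were chosen by family with their peaks in this list already known. The peaks were selected by their position in the genome relative to these genes. The numbers of genes with a peak are therefore a description and carry no test. TPS6 is listed as ATTPS6 in the gene table, and the name TPS10 there also belongs to a terpene synthase (AT2G24210), so each gene was identified by its locus.

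All samples came from lec1-1 mutant plants that carried a LEC1-GFP transgene between LEC1 flanking sequences, so the fusion protein was made in seeds of the mutant. Antibodies to GFP were used to collect the LEC1-bound chromatin in 2 biological replicates, each with an input of total chromatin from the same seeds. Whole seeds were used, so embryo, endosperm and seed coat cannot be told apart. The series provides 1 list of 6356 peaks, with no values per sample, so no value below has a replicate error and the read depth is unknown. Each peak has a score made by the authors on a scale that the sources used here do not give. Scores ran from 1.92 to 4.51 with a median of 2.45, and are compared only within this list. Where a difference between scores is given, its unit is not known. The threshold for entering the list is also not stated in them, so a gene without a peak is not shown to be unbound.

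Trehalose-6-phosphate is made from UDP-glucose and glucose-6-phosphate and serves plants as a signal of sucrose supply, which inhibits the energy-sensing kinase SnRK1. TPS1 is the main active enzyme in Arabidopsis, and embryos without it arrest before they mature. Class II proteins carry a synthase-like and a phosphatase-like domain, but enzyme activity has not been established for them in Arabidopsis, and regulatory roles are proposed. Trehalose-6-phosphate phosphatases (TPP) convert trehalose-6-phosphate to trehalose, and trehalase splits the latter into glucose.

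LEC1-GFP peaks were found at 6 of the 7 class II genes and not at TPS1. TPS6, TPS7, TPS8, TPS9, TPS10 and TPS11 had a peak, and TPS5 had none. Of all protein-coding genes, 24.6% had a peak by the same rule. The other class I genes TPS2, TPS3 and TPS4 also had no peak, so the class I count was 0 of 4. TPS2 and TPS3 are neighbouring copies, and the sources used here do not say how reads mapping to several places were handled. The difference between the classes was not tested.

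**Figure D1:**
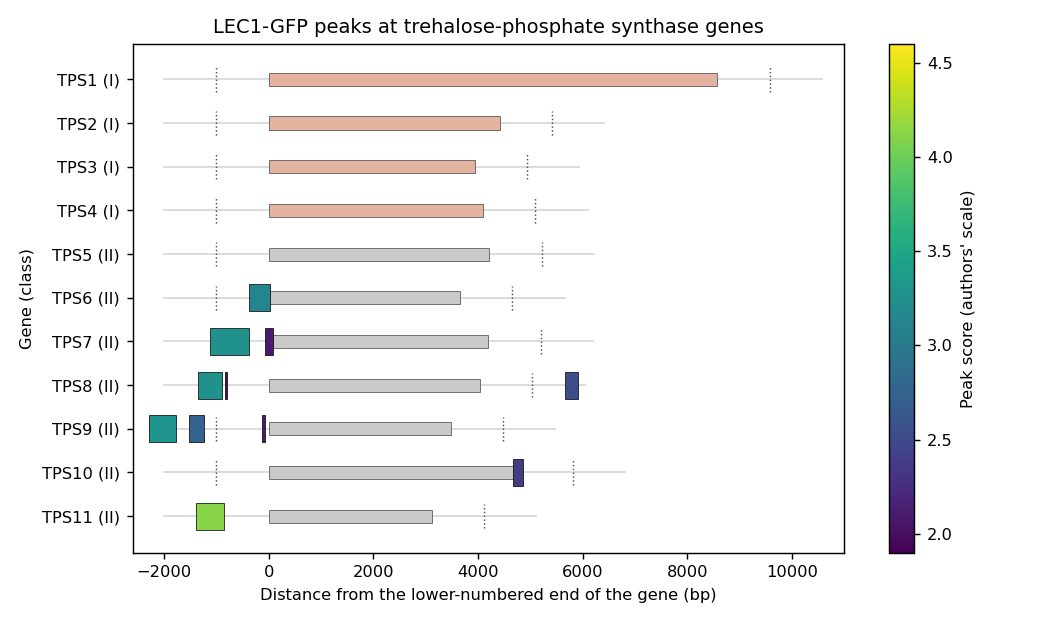
Peaks (coloured by score) at the 4 class I and 7 class II genes, each drawn to scale with the lower-numbered end of the gene at 0 bp. Horizontal bars are genes as listed in the gene table, dotted ticks mark 1000 bp outside each end, and peaks up to 2000 bp away are drawn. Class I rows hold no peak, and most class II peaks sit to the left of the gene.

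TPS11, a class II gene with a reported role in defence against aphids, had the highest score of the 8 genes. Its peak (chromosome 2, 8107501 to 8108049, TAIR10) was 549 bp wide, with a score of 4.12 that ranked 14 of 6356 peaks. Among the 119 peaks of exactly that width it ranked 5, and their median score was 3.18. The peak lay outside the gene on the lower-numbered side, 848 bp from the gene end. That side of TPS11 was a gap of 9504 bp to the next protein-coding gene, and no other peak was in the gap. Since no other gene lay within 1000 bp of the peak, TPS11 was the one gene it was assigned to. The peak midpoint was 1123 bp from TPS11, beyond the 1000 bp limit, so the assignment depends on counting any overlap.

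TPS8 and TPS7 had the next highest scores, both 3.25, and each had 2 peaks. Having 2 or more peaks by this rule was found for 4.06% of protein-coding genes. The main peak at TPS8 (chromosome 1, 26469451 to 26469899) ranked 553 and lay 895 bp from the gene, the farthest of the peaks counted. Between it and TPS8 was a 49 bp peak (chromosome 1, 26469951 to 26469999) with a score of 1.98, separated from the first by 51 bp. The main peak was also within 1000 bp of the neighbouring gene AT1G70280, which was closer, at 646 bp.

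The main peak at TPS7 (chromosome 1, 1953551 to 1954299) was 749 bp wide, the widest at these genes, and ranked 557. It lay 374 bp from TPS7 and 670 bp from ARA-2, a gene for a Rab-type small GTPase, and it covered all 459 bp of the long non-coding RNA gene AT1G04453. The second peak at TPS7 (chromosome 1, 1954601 to 1954749) crossed the end of the gene, with 76 bp inside it, and its score of 2.10 ranked 5357. So the stronger of the TPS7 peaks was outside the gene and the one at the gene end was among the lower scores of the list.

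TPS6, a gene with a reported role in cell shape, had 1 peak that crossed its lower-numbered end. The peak (chromosome 1, 25496551 to 25496949) was 399 bp wide, with 22 bp inside the gene, and its score of 3.13 ranked 763. HPR, the gene for a hydroxypyruvate reductase of photorespiration, ended 497 bp from this peak and shares it under the same rule.

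TPS10 and TPS9 had the lowest scores of the 6. TPS10 differed from the rest in position, since its peak (chromosome 1, 22181601 to 22181799) crossed the higher-numbered end of the gene, with 140 of its 199 bp inside. Its score was 2.38, rank 3593, slightly under the median of the list, and the pseudogene AT1G60150 lay 719 bp away. At TPS9, the peak within 1000 bp (chromosome 1, 8432051 to 8432099) was 49 bp wide, 79 bp from the gene, with a score of 2.10 and rank 5409. Peaks of 49 bp are the narrowest of the list, which held 472 of them.

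Stronger peaks stood just outside the limit at TPS9. A peak of 299 bp with a score of 2.73 (chromosome 1, 8430651 to 8430949) lay 1229 bp from the gene, and one of 499 bp with a score of 3.30 (chromosome 1, 8429901 to 8430399) lay 1779 bp away, the latter 402 bp from the splicing factor gene RSZ21. All of these lay in the 2680 bp gap between RSZ21 and TPS9. By the rule used, TPS9 therefore counts with its weakest peak, whereas its gap held a peak with a score above those of TPS6, TPS7 and TPS8. TPS8 likewise had a further peak with a score of 2.53 on its other side, 1617 bp from the gene. Counting all peaks within 2000 bp gave 3 peaks each at TPS8 and TPS9, and 3 or more were found at 1.40% of protein-coding genes. At TPS8 the main peak and the 49 bp peak, separated by 51 bp, counted as 2. That share was not counted for the longest genes alone.

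**Figure D2:**
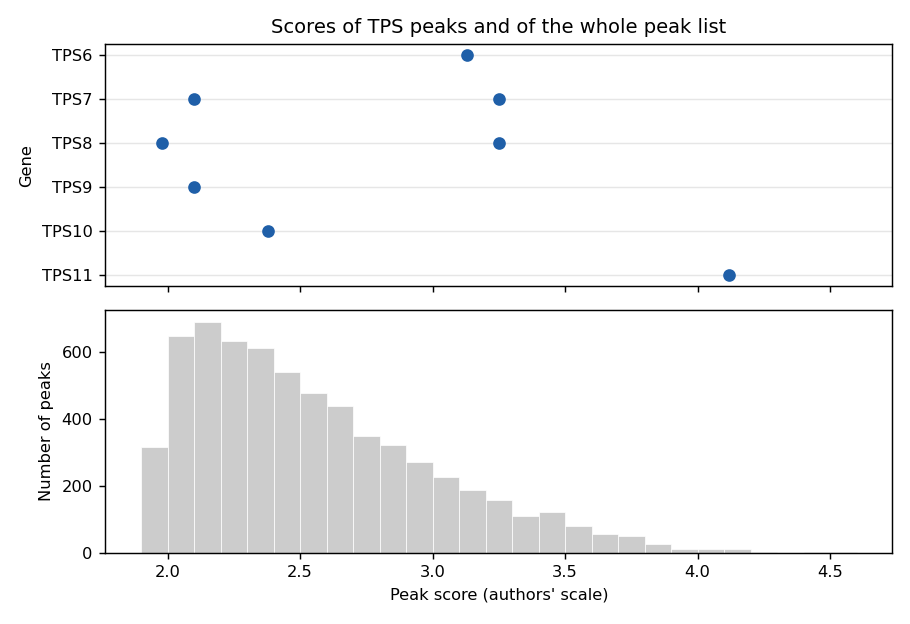
Scores of the 8 peaks within 1000 bp of a class II gene (upper panel, 1 point per peak, 1 line per gene) above the distribution of all 6356 peak scores (lower panel, number of peaks per 0.1 of score). The TPS11 peak at 4.12 stands in the upper tail, and the peaks of TPS9, TPS10 and the second peaks of TPS7 and TPS8 lie at or below 2.38.

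The 8 peaks at class II genes lay on both sides of the list median. Their scores ran from 1.98 to 4.12 with a median of 2.75, and 4 were above the list median and 4 below it. Taking the highest score of each gene, the median over the 6 genes was 3.19, against 2.51 over all 6738 protein-coding genes with a peak. The highest score of TPS11 was above that of 99.7% of those genes, TPS8 above 89.8%, TPS7 above 89.7%, TPS6 above 86.0%, TPS10 above 38.1% and TPS9 above 12.7%. Wider peaks tended to have higher scores (a Spearman correlation of 0.86 over the 6356 peaks, given as a description, since neighbouring peaks are not independent), and the TPS11 peak was 0.94 above the median score of peaks of its width, whereas the other 7 were between 0.12 below and 0.14 above theirs.

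**Figure D3:**
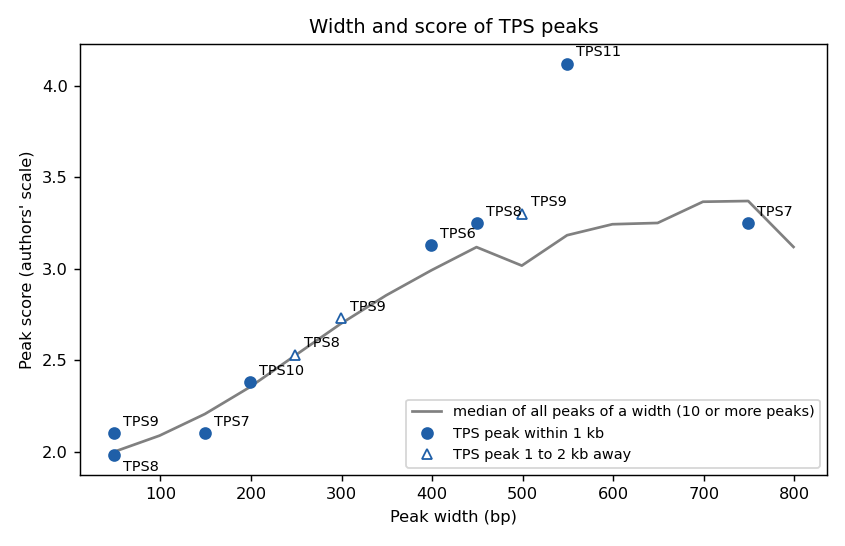
Width (bp) and score of the 11 peaks within 2000 bp of a class II gene, filled circles for those within 1000 bp and open triangles for those beyond. The grey line is the median score of all peaks of each width, for widths with at least 10 peaks. TPS11, at 549 bp and 4.12, is the point farthest above the line.

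Of the 8 peaks, from 6 genes, 7 were on the lower-numbered side of their gene and 1, at TPS10, on the higher-numbered side. The gap to the next protein-coding gene on the higher-numbered side was 0 bp at TPS6 and TPS9, 11 bp at TPS7 and 73 bp at TPS11. At TPS10 the gap was longer on the side of its peak (6289 against 590 bp). At TPS8 it was longer on the other side (2909 against 1990 bp). The side was not tested, and its share over all genes with a peak was not counted. Peaks crossed a gene end in 3 cases (TPS6, TPS7 and TPS10), the remaining 5 were entirely outside the gene, and 0 were entirely inside. Over the whole list 34.0% of peak midpoints lay inside genes. That is another measure, and the share of peaks entirely inside a gene was not counted, so these positions are not shown to be particular to TPS genes. The gene table used gives no strand or exons, so these sides are not sorted into promoter and 3′ flank.

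The genes without a peak differed in how far the nearest peak was. For TPS1 it was 5888 bp away with a score of 2.42, and neither TPS1 nor the gaps beside it held any peak, although its span of 8573 bp was the longest of the 11 TPS genes. For TPS5, a class II gene with reported roles in heat tolerance, the nearest peak (chromosome 4, 9873551 to 9873749) was 2422 bp away on the lower-numbered side, with a score of 2.50. This peak was within the gap of 2773 bp before the next gene, so a flank of 2500 bp, chosen after the distances were seen, added TPS5 and brought class II to 7 of 7, where all protein-coding genes stood at 34.8%. TPS4 had its nearest peak 2110 bp away, with a score of 2.25, and was the class I gene added at that width. With the gene body alone class II stood at 3 of 7 against 12.5% of all protein-coding genes, with a flank of 500 bp at 4 of 7 against 20.4%, and with a flank of 2000 bp at 6 of 7 against 31.5%.

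For TPS2 and TPS3 the nearest peak, the same for both, was 17190 bp and 12138 bp away. Peaks beyond 2000 bp were also found beside class II genes. On the higher-numbered side of TPS8 a peak (chromosome 1, 26477551 to 26477649) with a score of 2.01 lay 2717 bp from the gene, and TPS10 had a peak (chromosome 1, 22185601 to 22185899) with a score of 2.53 at 3860 bp. Counting the gene and the gaps up to the next protein-coding genes, 7 of 7 class II and 0 of 4 class I genes had a peak, against 30.2% of protein-coding genes. This count was chosen after the peaks were seen. Its window follows the gaps and so differed between genes. The gaps were 836 and 59 bp at TPS4, 874 and 0 bp at TPS6, and 9504 and 73 bp at TPS11. The nearest peak to TPS4 lay beyond the 59 bp gap on that side and was not counted.

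**Figure D4:**
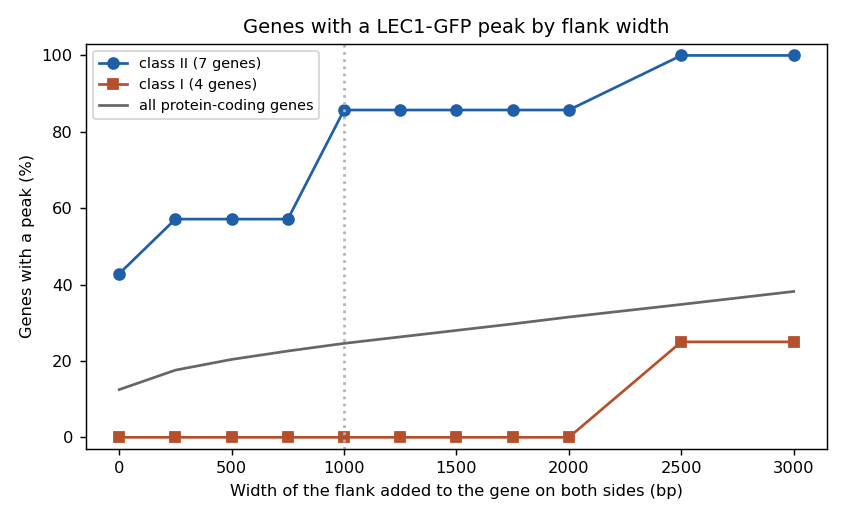
Percentage of genes with a peak in the gene or in a flank of the given width (bp) on both sides, for 7 class II genes, 4 class I genes and all protein-coding genes. The dotted line marks 1000 bp. Class II rose from 3 of 7 genes with no flank to 6 of 7 at 1000 bp, and class I stayed at 0 of 4 up to 2000 bp.

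Gene spans and gaps overlapped in range between the classes, with mostly longer gaps in class II. All 11 TPS genes were among the longest 25% of protein-coding genes (3031 bp or more), where 29.5% of genes had a peak against 16.5% of the shortest 25%. Class I spans were 3935 to 8573 bp and class II spans 3113 to 4807 bp. The share of genes with a peak varied little with the longer of the gaps to the next protein-coding genes, from 22.3% to 26.0% over 4 groups of genes of about equal number. That longer gap was 836, 1117, 1388 and 3328 bp in class I. In class II it was 874, 1793, 2680, 2773, 2909, 6289 and 9504 bp. Whether spacing bears on the class counts was not tested.

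Other genes of trehalose metabolism also had peaks in many cases. Of 10 TPP genes and the trehalase gene TRE1, 8 of 11 had a peak, with a median highest score of 3.31, against 24.6% of all protein-coding genes. Without the peaks wider than 549 bp the count was 5 of 11, against 23.8% of all protein-coding genes. TPPG had a score of 3.96, TPPH 3.52, TPPA 3.51, TPPF 3.37 and TPPJ 3.25, whereas TPPC and TPPD had no peak. The highest scores of TPPG and TPS11 were thus the top values of the phosphatases and of the class II genes.

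Of 10 genes for subunits of SnRK1, the kinase that trehalose-6-phosphate inhibits, and for its activating kinases GRIK1 and GRIK2, 2 had a peak, close to the share of all genes. Both were among the 8 subunit genes. KING1, a regulatory subunit gene, had a score of 3.69, and KIN10, the main catalytic subunit gene, had a 49 bp peak with a score of 1.94 near the bottom of the list. SNF4 and the beta-subunit gene AT2G28060 had no peak. Among genes that make and use sucrose and UDP-glucose, 7 of 12 had a peak, against 24.6% of all protein-coding genes, with a median highest score of 2.62 against 2.51 over all protein-coding genes with a peak. UGP1, for UDP-glucose pyrophosphorylase, had a score of 3.74, the sucrose-phosphate synthase gene SPS3F 3.04, the sucrose synthase gene SUS3 2.67, UGP2 2.62 and SUS1 2.57, and SUS4 and SUS6 had no peak.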

How the data were processed

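Seeds were crosslinked and their chromatin sheared by sonication, per the labels' protocols. Bowtie 0.12.7, SAMtools 0.1.19 and the TAIR10 build are named in the submitters' processing notes. No source used here gives the peak caller, its threshold, pooling of replicates or the handling of duplicates. The authors deposited 1 peak list with a score per peak, read as the authors' own value. All 6356 starts lay on a 50 bp grid, so edges are no finer than that. Starts were raised by 1 to count from 1.

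Gene names and ends were taken from RefSeq's table for TAIR10.1, a different assembly label from the TAIR10 of the notes, so gene positions are not printed and distances rest on that table. The share of peak midpoints inside genes was 34.0% without an offset and 41.5% and 41.6% with the peaks moved 250 bp to either side. Strand, exons and sequences were not used here. All genes of the lists were found by locus.

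A gene had a peak when at least 1 bp of a peak lay in it or within 1000 bp of an end, and 1 peak could count for several genes. The members and lists were chosen with earlier results of these data known. No test was run, and the overlap count was tested on simulated peaks. Named genes were all TPS genes, the neighbours at their peaks and, of each related list, up to 5 with the highest score and the first 2 by locus without a peak. Python 3.11.15 and pandas 2.3.3 were used. The alternatives are given in the closing section.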

Additional observations from a re-analysis of the deposited data

How the results depend on the processing

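Class I stayed at 0 of 4 genes under 6 alternatives. These were the upper 3178 peaks by score, the 6125 peaks no wider than 549 bp, and flanks of 500 and 2000 bp. The others were the gene body alone and the peak midpoint in place of any overlap. The TPS11 peak was 549 bp wide, exactly at the width limit, and was kept. Under that limit class II stayed at 6 of 7 genes, against 23.8% of all protein-coding genes. TPS7 then counted only through its 149 bp peak with a score of 2.10. With wider flanks, added after the data were seen, class I was 1 of 4 (TPS4) at 2500 and 3000 bp. At these widths class II was 7 of 7 and all protein-coding genes rose to 9558 (34.8%) and 10478 (38.2%). Class II fell from 6 to 3 of 7 genes (TPS6, TPS7 and TPS10) with the gene body alone, where all protein-coding genes fell to 3432 (12.5%). It was 4 with the highest-scoring peaks, where TPS9 and TPS10 dropped out and all protein-coding genes fell to 3707 (13.5%). It was also 4 with a flank of 500 bp, where TPS8 and TPS11 dropped out and 20.4% of all protein-coding genes had a peak, and 5 with midpoints, where TPS11 dropped out and the share of all was 23.6%. The related lists were run under alternatives chosen after seeing the data. TPP and trehalase genes with a peak fell from 8 to 5 of 11 without the peaks wider than 549 bp. There all protein-coding genes went from 6738 to 6542 (23.8%). With the gene body alone TPP and trehalase genes fell to 4. SnRK1 genes fell from 2 to 1 with the highest-scoring peaks and to 0 with the gene body alone. They rose to 3 of 10 with a flank of 2000 bp, which added GRIK1, where all protein-coding genes stood at 31.5%. The planned count on the upstream side alone was not run, because the gene table gives no strand. No replicate could be left out, since the list holds no values per sample. No paired analysis was possible because the result comes from no test and the list carries no replicate numbers. Depth is unknown, so how many weaker sites were missed cannot be given.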

Other observations

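The name TPS10 also belongs to the terpene synthase gene AT2G24210, which had a peak with a score of 2.68, higher than the 2.38 of the trehalose-phosphate synthase TPS10. A search by symbol alone returns both genes.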
